A study of Mus musculus with 10 samples.

Results

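The adhesion G protein-coupled receptors described here are the genes whose mouse symbol begins with Adgr. They were taken from the count tables by symbol alone, without use of any measured value, and 27 protein-coding genes of the 46517 Ensembl genes in the tables qualified. Of these 27, 26 had a read in at least 3 cells. *Adgrg4* did not and is not described further. Single endothelial cells had been sorted from ear skin by Podoplanin and CD31 and sequenced by Smart-Seq2, a method that reads along the whole cDNA of each cell. The 5 mutant mice carried a Cre-inducible R26-LSL-Pik3caH1047R allele together with *Cdh5*-CreERT2, in which the *Cdh5* promoter drives an inducible Cre in lymphatic and blood endothelial cells (LECs and BECs), and had received 4-OHT on the ear skin at 3 wk. Control 1 was a wild-type C57BL/6J mouse, bred separately and left untreated. Control 2, a littermate without Cre, was given 4-OHT, so the treatment is not shared by all controls. The study describes the same strain background, reached by backcrossing, for all of its mice. All 7 mice were 5 wk old, and cells without recombination were not separated from those with it by the sort.

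Adhesion G protein-coupled receptors carry a long extracellular part that binds matrix proteins, ligands on neighbouring cells or secreted factors, and a membrane-spanning part that couples to G proteins. Most are cut during maturation in a conserved domain next to the membrane, and the short stretch that is then exposed can act as a tethered agonist. In vessels, *Adgrl4* (ELTD1) and *Adgrf5* (GPR116) are known as endothelial receptors, *Adgra2* (GPR124) as a co-receptor for Wnt7 ligands together with *Reck* in brain angiogenesis, and *Adgre5* (CD97) as a leukocyte and endothelial receptor that binds CD55.

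LECs were the 1641 cells whose summed CPM (reads of a gene scaled to the total reads of the cell) of *Prox1*, *Flt4* and *Mmrn1* reached 300 and exceeded those of *Flt1*, *Emcn* and *Podxl*. BECs were the 1490 cells with the reverse. Per mouse these were 175–367 LECs and 157–330 BECs, whose reads were summed, so that each mouse gave a single value per gene and cell class. The sums held 55614594–194349752 reads for LECs and 38401474–99628037 for BECs. Pan-endothelial markers (*Cdh5*, *Pecam1*, *Cldn5*, *Kdr*) summed to 4132–5055 CPM in every class and mouse, with none of the 4 at 0. Markers of fibroblasts and mural cells were present at lower levels and differed between the genotypes, as given beside the genotype comparisons. Those of keratinocytes summed to 54.9–316 CPM in LECs and 10.2–546 in BECs over all mice. Immune markers summed to 8.75–45.3 and 5.31–12.5 CPM, and Schwann and neural markers to 24.0–73.9 and 2.07–96.4. Each of these lists had 5 genes, none at 0, and overlapped between the genotypes in both classes. The plates of mutants 1–4 carry numbers of a different series from those of mutant 5 and the controls. That series and the genotype can be told apart only through mutant 5.

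Expression of the receptors was concentrated in few genes. At a mean of at least 5 CPM in control or in mutant mice, 11 members were expressed in LECs and 11 in BECs, 10 of them in both. The 10 shared members were *Adgra2*, *Adgra3*, *Adgre5*, *Adgrf4*, *Adgrf5*, *Adgrg1*, *Adgrg3*, *Adgrl1*, *Adgrl2* and *Adgrl4*. In LECs *Adgrf4* reached this level only through control 2 and in BECs only in controls, with reads in few cells, as given below. *Adgrb2* passed only in LECs and *Adgrg6* only in BECs, both in mutant mice and not in controls. *Adgrv1*, below that level, was called between the classes and is described with them. The other 14 members stayed at a group mean of at most 2.47 CPM in either class and at most 4.59 CPM in any mouse, in both cases *Adgrg2*. Of all 27 members, 20 passed the filter on low counts in at least 1 comparison and 10 were called in at least 1. Of these 10, 9 were called between LECs and BECs, where 4556 of all 17587 genes tested were called. The share of all genes called in at least 1 comparison was not counted, so the 10 cannot be set against it.

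Levels were compared between genes as RPKM, which is the CPM divided by the exon length in kilobases, with the exon lengths of the deposited files. In control LECs, *Adgrg3* had the highest RPKM of the group, with a mean of 225 ± 24.6 (SD, n = 2 here and for other control values), followed by *Adgrf5* at 63.6 ± 9.50. *Adgrl4* at 28.8 ± 12.6 and *Adgre5* at 25.0 ± 8.41 RPKM did not differ beyond their spread, nor did *Adgrg1* at 13.4 ± 4.34 and *Adgra2* at 11.1 ± 6.21. In mutant LECs *Adgrg3* (104 ± 10.5 RPKM; n = 5 here and for other mutant values) was still above *Adgrf5* (74.9 ± 19.8), with *Adgre5* at 31.4 ± 4.78 and *Adgra2* at 12.7 ± 1.77. *Adgrg1* at 8.83 ± 3.46 and *Adgrl4* at 8.42 ± 2.82 RPKM were level there.

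BECs had another order. *Adgrg1* had the highest mean, at 209 ± 73.7 RPKM in control and 215 ± 23.0 in mutant mice. *Adgrl4* (163 ± 17.8 and 158 ± 24.4 RPKM) and *Adgrf5* (161 ± 15 and 131 ± 21.4) followed and did not differ beyond their spread in either genotype. In controls *Adgrg1* did not differ from them beyond its spread either, with 157 RPKM in control 2. *Adgre5* came next at 52.5 ± 4.91 and 38.3 ± 1.64 RPKM, and *Adgrl2*, a latrophilin, at 7.59 ± 0.360 and 8.09 ± 1.02. The files give *Adgrg3* 2436 bases of exon, whereas GENCODE vM21 gives it 6905. The reads were not recounted on vM21. The same counts divided by the vM21 lengths would give *Adgrg3* 79.4 in control LECs, against 60.2 for *Adgrf5*. In mutant LECs they would give 36.8 against 70.9. These are not RPKM under vM21, since reads in the bases it adds may not have been counted. The order of *Adgrg3* and *Adgrf5* in mutant LECs is thus sensitive to the exon length used. Their order under vM21 was not measured. The same limit holds for the first place of *Adgrg1* in BECs, which would be at 149 in control and 153 in mutant mice.

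**Figure D1:**
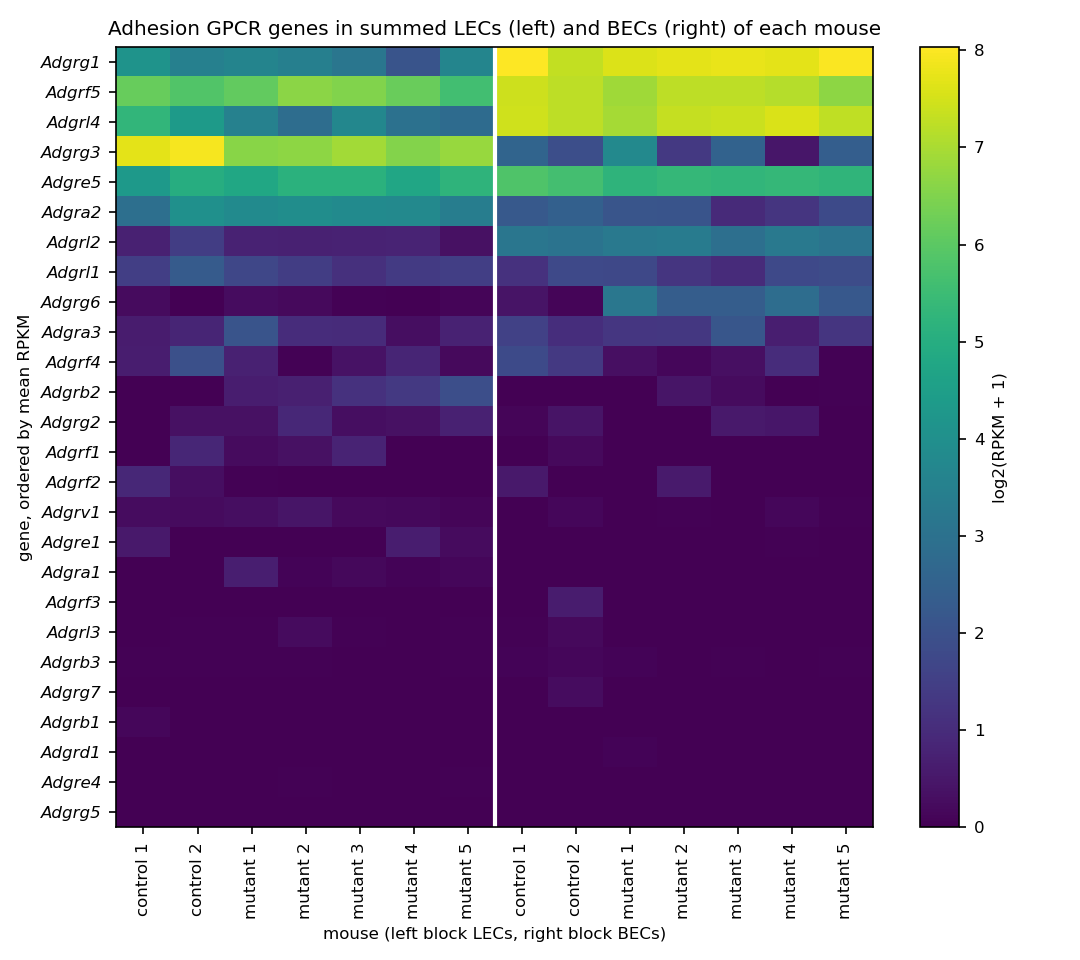
Level of the 26 measured members (rows, ordered by mean) in summed LECs (left block) and BECs (right block) of each mouse, as log2(RPKM + 1). *Adgrg1* and *Adgrl4* are bright in all BEC columns and darker in all LEC columns, *Adgrg3* shows the reverse, and *Adgrf5* and *Adgre5* are present in both.

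Several members lie next to each other in the genome (GRCm38, GENCODE vM21). *Adgrg1* (chr8:94974751-95014217, plus strand) and *Adgrg3* (chr8:95017692-95045250, plus strand) are separated by 3474 bases, and *Adgrg5* lies 31470 bases before *Adgrg1*. With the lengths of the files, *Adgrg1* had the highest mean RPKM of the members in BECs and *Adgrg3* in LECs, while *Adgrg5* had at most 0.00991 RPKM in any LEC or BEC sum. *Adgrf1* and *Adgrf5* (chr17:43360451-43459557, plus strand) are 35713 bases apart, and of this pair only *Adgrf5* was expressed. *Adgre5* (chr8:83723251-83741326, minus strand) shares 24.6% of its exon bases with other genes, among them *Ddx39* on the opposite strand, and *Adgrl1* shares 15.6% with predicted genes on the opposite strand. The counting is not stated to use strand, so reads of these overlaps cannot be assigned with certainty.

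The 250 bases before the RefSeq start are shown for the 3 members that differed between mutant and control LECs, since these are followed through the results below. The sequences are from RefSeq on GRCm38.p6, read 5′ to 3′ on the strand of the gene. Capitals mark the letters CAGGAAG, a spelling of the ETS family motif. The *Adgrg3* window is chr8:95017442-95017691, the *Adgrl4* window chr3:151437632-151437881 and the *Adgrb2* window chr4:129984620-129984869, all on the plus strand, and none overlaps an exon in vM21.
Adgrg3: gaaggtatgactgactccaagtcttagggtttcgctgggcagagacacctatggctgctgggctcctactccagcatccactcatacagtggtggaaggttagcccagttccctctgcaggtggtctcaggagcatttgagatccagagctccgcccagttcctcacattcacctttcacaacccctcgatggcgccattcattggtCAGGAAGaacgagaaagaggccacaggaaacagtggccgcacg
Adgrl4: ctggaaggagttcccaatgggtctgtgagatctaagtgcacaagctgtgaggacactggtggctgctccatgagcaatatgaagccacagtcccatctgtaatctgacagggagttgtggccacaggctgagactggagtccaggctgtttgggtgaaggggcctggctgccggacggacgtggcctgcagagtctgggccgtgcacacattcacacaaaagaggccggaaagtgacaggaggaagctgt
Adgrb2: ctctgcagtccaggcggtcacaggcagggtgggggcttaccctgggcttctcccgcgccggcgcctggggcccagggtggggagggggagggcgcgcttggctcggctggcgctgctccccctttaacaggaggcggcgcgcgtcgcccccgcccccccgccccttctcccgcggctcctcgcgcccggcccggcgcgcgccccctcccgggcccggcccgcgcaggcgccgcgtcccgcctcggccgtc

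The GC content of these windows was 55.2%, 56.8% and 81.6%. Of the 27 members, 20 matched a window by symbol. Some had several starts, which gave 24 windows. On both strands, CAGGAAG was found in 4 of these 24 windows (of *Adgrf5*, *Adgrg3*, *Adgrg7* and *Adgrl2*), and in 10.8% of the 32851 windows of all genes. CCGGAAG, another ETS spelling, was in none of the 24, and in 6.91% of all windows. GTAAACA, a forkhead spelling, was also in none of them, and in 3.17% of all. The ETS spellings differ at their second letter, so no position can match both. A match is a run of letters and not a measured binding site.

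LECs and BECs were compared within each mouse (edgeR quasi-likelihood test with the mouse as a block, called at a Benjamini-Hochberg adjusted p under 0.05). Higher in LECs were *Adgrg3*, *Adgra2* and *Adgrv1*, and higher in BECs were *Adgrg1*, *Adgrl4*, *Adgrl2*, *Adgrg6*, *Adgrf5* and *Adgre5*. Of the 27 members, 16 passed the filter on low counts, and 3 were called higher and 6 lower in LECs. Over all genes tested, 13.2% were called higher and 12.7% lower. The median log2 fold change was -0.27 over the 16 members. A gene abundant in a single class passes such a filter through that class, so the 16 are not a neutral sample of the members.

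*Adgrg3*, also known as GPR97, had 506 and 591 CPM in LECs of control 1 and 2 and 237, 247, 291, 227 and 268 CPM in those of mutants 1–5. In BECs it had 12.3 and 6.88 CPM, and 30.8, 3.72, 11.7, 0.967 and 10.3 CPM. All 7 LEC values were above all BEC values, and the difference was 5.36 on the log2 scale (SE 0.58, adjusted p = 0.000136). Errors of log2 fold changes are SEs throughout, taken as the absolute log2 fold change divided by the square root of the F statistic of the test. After thinning each cell to 50000 reads, 82.7% of control LECs had an *Adgrg3* read and 66.1% of mutant LECs, against 30.3% and 17.4% of BECs (means over mice). *Adgra2*, the Wnt7 co-receptor component, was higher in LECs in 7 of 7 mice, with 38.6–89.3 CPM against 5.56–26.4 (log2 fold change 2.20 ± 0.33, adjusted p = 0.00105). The ranges of the classes did not overlap. *Adgrv1*, a very large receptor known from hair cells of the inner ear, was low in both, with 2.16–9.49 CPM in LECs and 0.0953–2.67 in BECs (2.75 ± 0.80, adjusted p = 0.0330), and its ranges overlapped.

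On the BEC side, *Adgrg1* (GPR56), a receptor for collagen III and transglutaminase 2, had 1009 and 606 CPM in BECs of the controls and 755, 794, 830, 794 and 983 CPM in those of mutants 1–5. In LECs it had 63.4 and 39.7 CPM, and 44.0, 38.8, 30.4, 12.5 and 44.8 CPM. The ranges were far apart, and the log2 fold change was -4.53 ± 0.26 (adjusted p = 4.75e-06). *Adgrl4* had 558–863 CPM in BECs against 27.3–173 in LECs (-3.84 ± 0.35, adjusted p = 5.40e-05), and *Adgrl2* had 93.6–130 against 4.08–25.2 (-3.53 ± 0.29, adjusted p = 2.54e-05), again without overlap. *Adgrg6* (GPR126), a receptor known for its part in Schwann cell myelination and for binding collagen IV, had 0–1.25 CPM in LECs and 0.585–52.9 in BECs, and was lower in LECs in 7 of 7 mice (log2 fold change -5.56 ± 0.90, adjusted p = 0.00158). Its ranges overlapped, since its BEC level differed by genotype, as given below.

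*Adgrf5* and *Adgre5* were abundant in both classes and differed less. *Adgrf5*, known from lung surfactant regulation, had 855–1465 CPM in BECs and 402–835 in LECs, and was lower in LECs in 7 of 7 mice (log2 fold change -1.02 ± 0.10, adjusted p = 8.41e-05). *Adgre5* had 137–210 CPM in BECs and 71.7–137 in LECs, and was also lower in 7 of 7 mice (-0.56 ± 0.16, adjusted p = 0.0321). Only 8 of 15 alternatives called *Adgre5*, and 10 of 15 called *Adgrv1*, whereas the other 7 called members were called under all 15. *Adgrl1* (10.1–34.2 CPM in LECs, 8.60–22.7 in BECs) had a difference of 0.06 ± 0.22, with an adjusted p of 0.878. *Adgra3* and *Adgrf4*, with adjusted p of 0.125 and 0.985, also did not pass. DESeq2 called 11 of the 16, and 6147 of 17587 genes. It added *Adgra3* as lower (adjusted p = 0.0373) and *Adgrb2* as higher in LECs (adjusted p = 0.0248). In edgeR without mutant 1, *Adgra3* was also called.

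**Figure D2:**
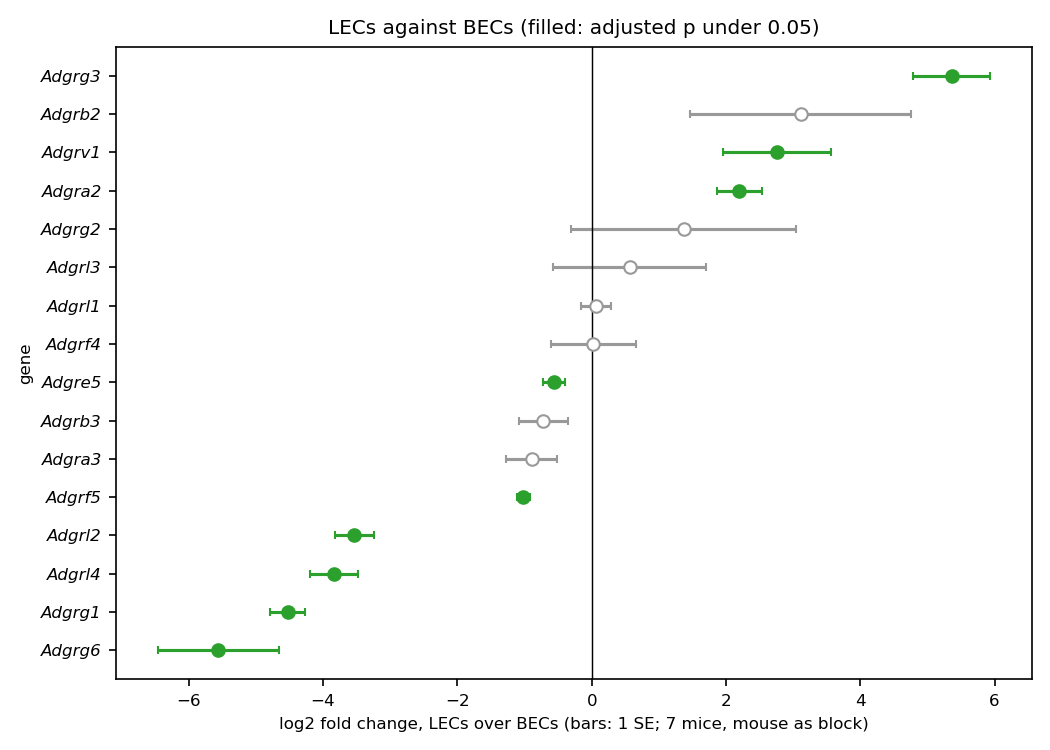
Log2 fold change of LECs over BECs for the 16 tested members (points, with bars of 1 SE; 7 mice). Filled points are the 9 called members, from *Adgrg6* at -5.56 to *Adgrg3* at 5.36.

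*Ptx3*-high LECs, those with at least 100 CPM of *Ptx3*, were compared with the other LECs of the same mouse, since the study describes a *Ptx3*-expressing LEC type at capillary ends. They were 6.56% and 25.1% of the LECs of control 1 and 2, and 33.2–44.1% of those of mutants, and in control 1 they were only 12 cells. *Adgrf5* was lower in *Ptx3*-high LECs. It had 575 and 306 CPM in *Ptx3*-high against 602 and 554 in other LECs of the controls. In mutants 1–5 it had 338, 479, 637, 447 and 321 CPM against 715, 1027, 842, 789 and 479. All 7 mice had the lower value in *Ptx3*-high LECs, least so control 1, and the log2 fold change was -0.67 ± 0.13 (adjusted p = 0.0308). This was the only one of 14 tested members called, against 1.57% of all genes called lower. With the *Ptx3* gate at 300 CPM the value was -0.52 and no longer passed, and it was lost when any mouse but control 1 was left out (0 members called in each case).

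*Adgrb2* (BAI2), a brain angiogenesis inhibitor family member, had no read in either group of control LECs. In *Ptx3*-high LECs of mutants 1–5 it had 9.41, 10.9, 16.8, 19.1 and 26.1 CPM, and in their other LECs 0.223, 0.442, 2.39, 1.07 and 11.1 CPM. Every mutant was higher in its *Ptx3*-high LECs, although the ranges of the classes overlapped through mutant 5. Over all mice the log2 fold change was 3.60 ± 0.78 with an adjusted p of 0.0604. In mutant mice alone it was 3.63 ± 0.69 (adjusted p = 0.0248). The share of cells with a read after thinning was 9.77% in *Ptx3*-high and 2.29% in other mutant LECs, and 0.827% in mutant BECs, which have little of the gene.

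*Adgrl4* was low in *Ptx3*-high LECs of mutants, with 20.0, 5.25, 27.6, 17.4 and 5.46 CPM against 65.2, 42.0, 74.4, 46.0 and 48.0 CPM in the other LECs. The mutant ranges did not overlap. Control 2 had the same direction (60.5 against 103 CPM) and control 1 the opposite (320 against 162 CPM, from 12 cells). Over all mice the log2 fold change was -1.49 ± 0.47 (adjusted p = 0.147), without control 1 it was -1.87 ± 0.34 (adjusted p = 0.0205), and in mutants alone -2.11 ± 0.33 (adjusted p = 0.0119). Whether the *Ptx3* difference itself differed between genotypes was not tested. *Adgrg3* did not pass (0.00 ± 0.15, adjusted p = 0.993). DESeq2 called 3 of the 14, *Adgrf5*, *Adgrb2* and *Adgrl4*, and called 11.0% of all genes. Markers of cycling cells summed to 539–1159 CPM in Ptx3-high and 252–416 in other LECs of mutants, and to 74.7–112 and 51.4–65.0 in controls, and the BEC gate markers (*Flt1*, *Emcn*, *Podxl*, none at 0) to 208–468 CPM in Ptx3-high and 570–762 in other LECs over all mice, without overlap. Pan-endothelial markers summed to 3734–4699 CPM in Ptx3-high and 4303–5269 in other LECs, with overlap. The part of these in the differences was not tested. With cells holding other markers left out, *Adgrf5* was at -0.68 ± 0.14 (adjusted p = 0.0396) and *Adgrb2* at 2.76 ± 0.89 (adjusted p = 0.183).

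LECs below 300 CPM of *Lyve1* were compared with those at or above it, since *Lyve1* is high in capillary LECs and low in collecting vessels and valves. *Adgrg3* was lower in *Lyve1*-low LECs. The controls had 120 and 236 CPM of *Adgrg3* in *Lyve1*-low against 645 and 722 in *Lyve1*-high LECs. Mutants 1–5 had 94.8, 51.9, 151, 56.5 and 57.0 CPM against 281, 286, 317, 260 and 284. All 7 mice had the lower value in *Lyve1*-low LECs, with no overlap, and the log2 fold change was -1.91 ± 0.18 (adjusted p = 0.000731). It was called under all 16 alternatives. The median over all genes tested was -0.12, and the *Adgrg3* difference went well past that shift. Of 14 members tested 1 was called, lower, against 1.98% of all genes. Cycling markers summed to 19.1 CPM in *Lyve1*-low and 65.3–99.7 in *Lyve1*-high LECs of controls, and to 19.4–233 and 427–759 in mutants. BEC gate markers summed to 655–874 CPM in *Lyve1*-low and 461–631 in *Lyve1*-high LECs over all mice. Neither overlapped within a genotype. LEC gate markers summed to 3407–3999 and 5746–6973 CPM in controls, without overlap, and to 3218–4588 and 3394–5258 in mutants, with overlap. The part of these markers in the difference was not tested.

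*Adgrf5* ran the other way there, with 459–1311 CPM in *Lyve1*-low and 398–759 in *Lyve1*-high LECs, higher in 7 of 7 mice, but missed the threshold (0.45 ± 0.11, adjusted p = 0.0533). *Adgrb2* was at 0–0.497 CPM in *Lyve1*-low LECs of mutants and at 4.73–19.8 in their *Lyve1*-high LECs. Its groups did not overlap in mutants. It did not pass the filter on low counts over all mice, and in mutant mice alone its log2 fold change was -5.94 ± 1.02 (adjusted p = 0.0279). DESeq2 called 3 of 14 members, *Adgrg3*, *Adgrf5* and *Adgrl4*, against 13.3% of all genes.

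Mutant and control mice were then compared in LECs. *Adgrb2* was higher in mutants, and *Adgrg3* and *Adgrl4* were lower. Of 20 members tested 1 was called higher, against 1.96% of all genes, and 2 lower, against 0.805%. *Adgrg3* had 506 and 591 CPM in controls and 227–291 CPM in mutants, and its log2 fold change was -1.06 ± 0.13 (adjusted p = 0.0102). The highest mutant was below the lower control. After thinning, 82.0–83.4% of LECs had an *Adgrg3* read in controls and 61.0–76.0% in mutants, which did not overlap either. In *Ptx3*-high LECs the difference was -1.70 ± 0.15 (adjusted p = 0.00318) and in the other LECs -0.88 ± 0.16 (adjusted p = 0.0889).

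*Adgrl4* had 173 and 91.4 CPM in control LECs and 48.2, 29.2, 56.4, 32.0 and 27.3 CPM in those of mutants 1–5. The groups did not overlap, though the controls were far apart, and the log2 fold change was -1.74 ± 0.35 (adjusted p = 0.0417). The call was lost in 12 of 19 alternatives, among them each of 5 fits that left out a mutant and the fit without control 1 (-1.12 ± 0.40, adjusted p = 0.195). In *Ptx3*-high LECs the difference was -3.75 ± 0.76 (adjusted p = 0.0297), where the 12 cells of control 1 were at 320 CPM and control 2 was at 60.5.

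*Adgrb2* had 0 reads of 117129618 in the LECs of both controls. Mutants 1–5 had 3.67, 4.08, 7.92, 9.88 and 18.4 CPM. The edgeR adjusted p was 0.0154. Set against a floor of 3 reads over the control group, the mutant mean of 8.79 ± 5.97 CPM was 343-fold higher. That floor treats reads as independent, whereas the reads came from a small share of cells. The fold is thus not a lower bound over cells or mice. After thinning, 0 of 183 and 0 of 175 control LECs had a read, and 2.72%, 2.14%, 3.58%, 7.69% and 10.1% of the LECs of mutants 1–5 did. The Wilson 95% intervals of the controls reached up to 2.06% and 2.15%, and those of mutants 1–3 began at 1.17%, 0.835% and 2.105%, so the shares of these mutants overlap with at least 1 control within counting error. Without thinning, 10.2% of mutant LECs had a read. The call was lost in 3 of 19 alternatives, which were the replicate block, the fit without control 1 (adjusted p = 0.0570) and that in LECs with *Ptx3* under 100 CPM (adjusted p = 0.188).

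Other features moved with the genotype in LECs. Markers of fibroblasts (5 genes, none at 0) summed to 193–382 CPM in control and 15.8–106 in mutant LECs, and those of mural cells (5 genes, none at 0) to 101–126 and 36.8–63.3. Markers of cycling cells (6 genes, none at 0) summed to 53.1–77.9 CPM in control and 362–635 in mutant LECs. The LEC gate markers (*Prox1*, *Flt4*, *Mmrn1*) summed to 5273–6026 CPM in control and 3381–5006 in mutant LECs, and the BEC gate markers to 681–689 and 480–614, again without overlap. The part of the gate markers in the lower *Adgrg3* and *Adgrl4* was not tested. With cells holding other markers left out, *Adgrg3* (-1.12, adjusted p = 0.00645), *Adgrl4* (-1.78, adjusted p = 0.0378) and *Adgrb2* (adjusted p = 0.0395) were still called. With cycling cells left out, *Adgrg3* was at -1.05 (adjusted p = 0.0271) and *Adgrb2* at an adjusted p of 0.0357, while *Adgrl4* was at -1.54 (adjusted p = 0.107). With the plate series as a term only *Adgrb2* stayed called (adjusted p = 0.0234), with *Adgrg3* at -0.99 (adjusted p = 0.104) and *Adgrl4* at -2.25 (adjusted p = 0.165).

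**Figure D3:**
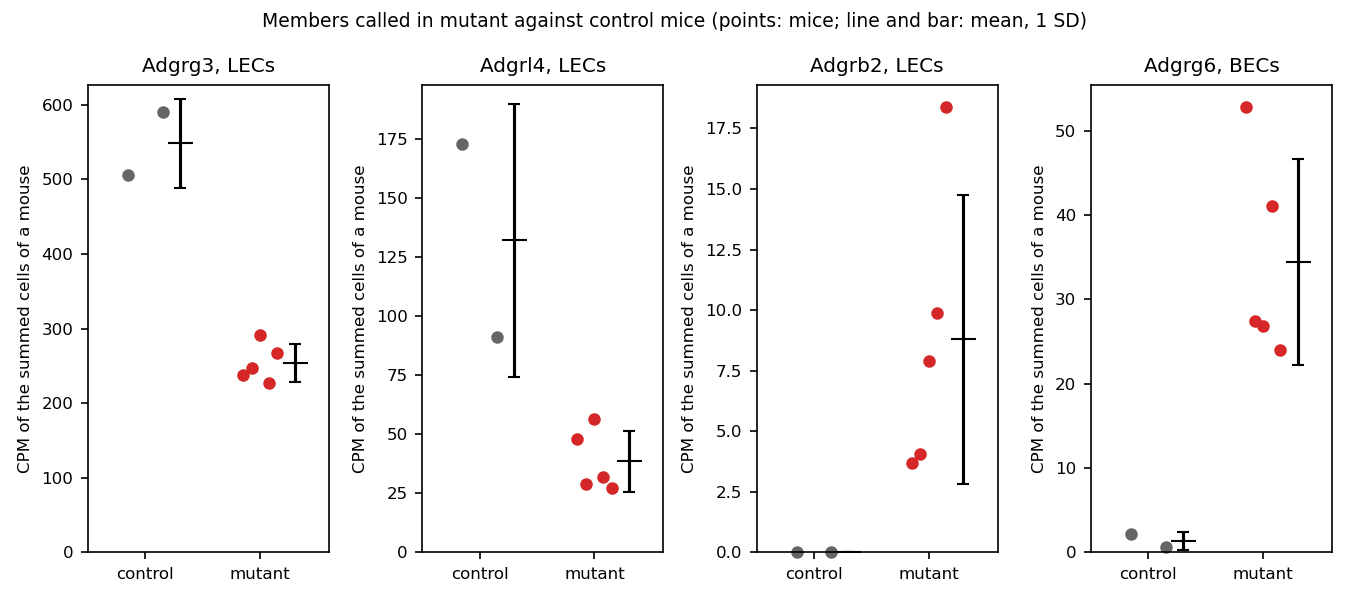
CPM of the 4 members called in mutant against control mice, with each point the summed LECs or BECs of a mouse and a line and bar for the mean and 1 SD (2 control and 5 mutant mice). In each panel the groups do not overlap: *Adgrg3* and *Adgrl4* are lower and *Adgrb2* and *Adgrg6* higher in mutants.

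In BECs, *Adgrg6* was the member that differed by genotype. Control 1 and 2 had 2.15 and 0.585 CPM, and mutants 1–5 had 52.9, 27.5, 26.8, 41.1 and 24.0 CPM. Every mutant was above both controls, and the log2 fold change was 4.70 ± 0.67 (adjusted p = 0.0139). After thinning, 4.40% and 1.91% of control BECs and 12.9–20.2% of mutant BECs had an *Adgrg6* read, against means of 0.820% and 1.53% of control and mutant LECs. Of 17 members tested, 1 was called higher, against 1.51% of all genes. *Adgre5* had 210 and 184 CPM in control and 137–151 CPM in mutant BECs, which did not overlap, but missed the threshold (-0.40 ± 0.14, adjusted p = 0.167). DESeq2 called both *Adgrg6* and *Adgre5*, and 11.6% of all genes.

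*Adgrg1*, *Adgrl4* and *Adgrl2*, the other large BEC receptors, did not pass by genotype in BECs. *Adgrg1* had a mean of 808 ± 285 CPM in control and 831 ± 89.0 in mutant mice (log2 fold change 0.10 ± 0.20, adjusted p = 0.823), and *Adgrl2* had 108 ± 5.12 and 115 ± 14.4 (0.15 ± 0.18, adjusted p = 0.670). Fibroblast markers summed to 575–790 CPM in control and 12.8–43.4 in mutant BECs, mural markers to 503–900 and 156–346, and cycling markers to 12.8–26.8 and 90.2–427. With cells holding other markers left out the *Adgrg6* log2 fold change was 6.15 ± 0.81 (adjusted p = 0.00902), and with cycling cells left out it was 4.74 ± 0.66 (adjusted p = 0.0146). With the plate series as a term it was 4.14 ± 0.74 and no longer passed (adjusted p = 0.0974).

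Whether the genotype difference itself differed between LECs and BECs was tested as an interaction over both classes. None of 20 members tested passed in edgeR, against 0.192% of all genes, and 6 had an unadjusted p under 0.05. *Adgrl4* was nearest, with a difference of -1.75 ± 0.39 on the log2 scale (adjusted p = 0.142). DESeq2 called *Adgrl4* (adjusted p = 0.000821) and *Adgrb2* (adjusted p = 0.00735), and 5.66% of all genes. In the simulated data of this comparison a change of 4-fold was recovered for 27.0% of the changed genes, so members that missed the threshold cannot be read as alike in both classes.

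BECs with at least 300 CPM of *Gja4*, *Gja5* and *Sema3g* together, here called arterial-gated, were compared with the other BECs of the same mouse. They were 18.9–23.6% of control and 9.78–16.5% of mutant BECs. *Adgre5* had 313 and 279 CPM in arterial-gated BECs of the controls and 200, 454, 361, 300 and 303 CPM in those of mutants 1–5. In other BECs it had 185 and 150 CPM, and 125, 119, 114, 131 and 107 CPM. All 7 mice were higher in the arterial gate, with no overlap, and the log2 fold change was 1.32 ± 0.17 (adjusted p = 0.00279). *Adgra2* had 9.95–127 CPM in the arterial gate and 3.61–14 in other BECs, higher in 7 of 7 mice (2.70 ± 0.57, adjusted p = 0.0330). Of 11 members tested both were called higher, against 1.26% of all genes. The median over all genes tested was -0.20, and both changes exceeded that shift. *Adgra2* was called in 6 of 16 alternatives, and its adjusted p was 0.0668 with cells holding other markers left out, while *Adgre5* was called in all 16. DESeq2 called 5 of 11, among them *Adgrl2* and *Adgrg6* as lower, and 12.2% of all genes. Fibroblast markers summed to 743–1382 CPM in the arterial gate and 513–646 in other BECs of controls, and to 0.717–161 and 4.60–43.9 in mutants. Mural markers summed to 571–1728 and 478–699 CPM in controls, and to 84.8–1158 and 145–299 in mutants. Pan-endothelial markers summed to 5008–6795 CPM in the arterial gate and 3955–4733 in other BECs over all mice, without overlap, and the part of these markers in the differences was not tested.

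BECs with at least 1000 CPM of *Ackr1*, *Selp* and *Vwf* together and more than 3 times the arterial sum were called venous-gated. They were 26.8–35.2% of control and 46.6–62.3% of mutant BECs. *Adgre5* was lower in this gate, with 76.1 and 57.6 CPM in the controls and 45.5–65.3 in mutants against 229–303 CPM in other BECs. The gap was seen in 7 of 7 mice with no overlap, and the log2 fold change was -2.18 ± 0.12 (adjusted p = 2.27e-05). Venous-gated cells are part of the comparison group of the arterial gate and arterial-gated cells of that of the venous gate, so the signs of these comparisons are not independent. *Adgrl4* (-0.40 ± 0.06, adjusted p = 0.00538) and *Adgrf5* (-0.28 ± 0.06, adjusted p = 0.0197) were slightly lower in the venous gate in 7 of 7 mice, with 479–737 against 686–1031 CPM and 840–1285 against 874–1564 CPM. Pan-endothelial markers summed to 3683–4363 CPM in the venous gate and 4541–5672 in other BECs over all mice, without overlap. Cycling markers summed to 2.54–7.09 and 15.9–35.3 CPM in controls, and to 54.9–449 and 131–430 in mutants. The part of both in the differences of the venous gate was not tested.

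*Adgrg6* was higher in the venous gate. Mutants 1–5 had 77.3, 45.2, 43.7, 62.3 and 41.9 CPM of *Adgrg6* there and 13.3, 0.408, 2.63, 16.7 and 1.77 CPM in other BECs, and the controls had 3.24 and 1.97 CPM there and 1.55 and 0.0988 CPM elsewhere. All 7 mice were higher in the gate (log2 fold change 3.51 ± 0.68, adjusted p = 0.0149). Within the gate every mutant was above both controls, whereas outside it mutant 2 was below control 1, and the thinned share of cells with a read in the gate was 4.17% in control and 24.8% in mutant mice. The larger share of venous-gated cells in mutants moved with the *Adgrg6* level of all BECs. Within the gate the means were 2.61 ± 0.90 CPM in control and 54.1 ± 15.4 in mutant mice, and outside it 0.825 ± 1.03 and 6.96 ± 7.47. The genotypes were not tested within the gate. Of 12 members tested, 1 was called higher, against 2.78% of all genes, and 3 lower, against 3.03%. Without mutant 3 the *Adgrg6* (adjusted p = 0.0536) and *Adgrf5* (adjusted p = 0.0702) calls were lost, and the *Adgrf5* call was also lost without mutant 2 or mutant 4.

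**Figure D4:**
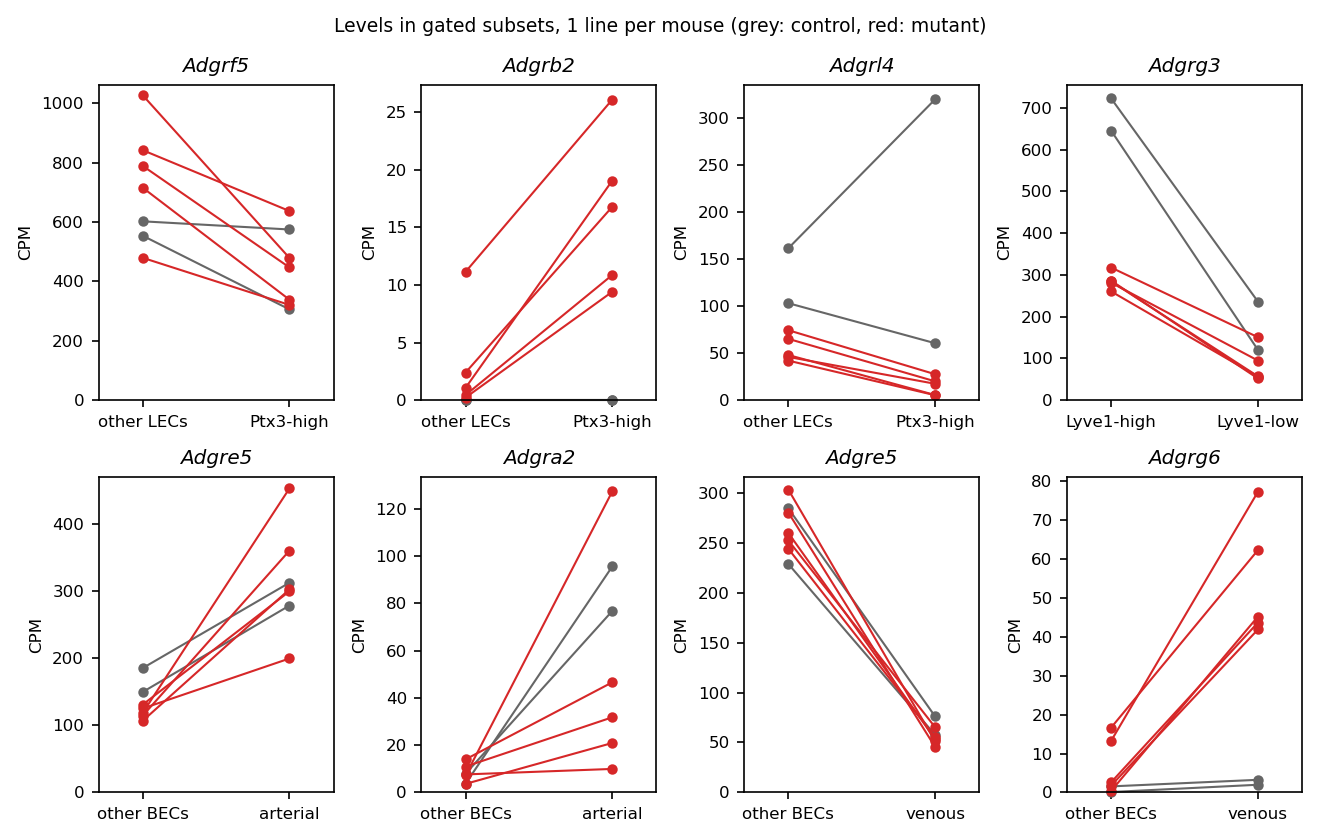
CPM of members in gated subsets, with a line for each mouse joining its sums (grey, 2 controls; red, 5 mutants). Lines run the same way in all mice for *Adgrf5*, *Adgrg3*, *Adgre5*, *Adgra2* and *Adgrg6*, the 2 control lines of *Adgrb2* lie at 0, and for *Adgrl4* control 1 rises while the other 6 fall.

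The remaining expressed members were low and did not pass in most comparisons. *Adgrl1*, a latrophilin, had 15.3 and 34.2 CPM in LECs of the controls and 19.6, 15.1, 10.1, 13.5 and 15.6 CPM in those of mutants 1–5. In BECs it had 10.6 and 20.6 CPM, and 20.3, 11.5, 8.60, 20.8 and 22.7 CPM. Its values overlapped between classes and genotypes, and it was called in none of the comparisons. *Adgra3*, an orphan relative of *Adgra2*, had 4.35 and 6.21 CPM in control LECs and 1.78–26.2 CPM in mutant LECs, and 8.53–15.5 and 4.91–27.9 CPM in BECs. *Adgrf4*, an orphan receptor, had 1.74 and 8.82 CPM in control LECs and 0.0719–2.36 in mutant LECs, which overlapped. After thinning, 3.08% of control and 0.817% of mutant LECs had an *Adgrf4* read, and 1.90% and 0.990% of BECs (means over mice). Keratinocyte markers were also present in both classes, and their part in the *Adgrf4* reads was not tested. In BECs *Adgrf4* had 7.74 and 4.63 CPM in controls and 0.110–3.20 in mutants. The BEC groups did not overlap, but the difference missed the threshold (log2 fold change -2.54 ± 1.06, adjusted p = 0.236), as did those of *Adgra3* in both classes. *Adgrl2* was lower in mutant than in control LECs on average (8.87 ± 2.71 against 17.2 ± 11.3 CPM), with overlap and an adjusted p of 0.335.

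The CELSR group belongs to the same receptor family, but its symbols do not begin with Adgr. It was followed beside genes known to work with these receptors, which were 28 ligands and partners and 20 G proteins and effectors. Between LECs and BECs, 11 of 20 tested ligands and partners were called, 6 higher in LECs and 5 lower, against 13.2% and 12.7% of all genes. Higher in LECs were *Thy1* (3.74 ± 0.21), a partner of *Adgre5*, *Cd55* (1.56 ± 0.17), the *Adgre5* ligand, the latrophilin ligands *Flrt3* (3.20 ± 0.24), *Flrt2* (1.56 ± 0.33) and *Tenm3* (5.03 ± 0.91), and *Wnt7a* (6.50 ± 0.93), a ligand sensed through *Adgra2*, at a mean of only 3.19 CPM in LECs. Lower in LECs were *Prnp* (-3.19 ± 0.16), *Fzd4* (-1.49 ± 0.16), *Lrp5* (-0.88 ± 0.25) and the collagen IV chains *Col4a1* (-0.62 ± 0.08) and *Col4a2* (-0.91 ± 0.08). The median log2 fold change over these 20 was -0.13.

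Of the 20 G proteins and effectors, 8 were called between the classes, 5 higher in LECs and 3 lower, against the same 13.2% and 12.7% of all genes, mostly by small amounts (*Gna13* 0.53 ± 0.11, *Gnaq* -0.52 ± 0.12, *Gnas* 0.26 ± 0.06). *Celsr1*, of the CELSR group, was higher in LECs (1.05 ± 0.34, adjusted p = 0.0466), in 6 of 15 alternatives. By genotype, *Flrt2* was higher in mutants in LECs (1.28 ± 0.26) and in BECs (2.88 ± 0.54), and *Col4a1* was higher in mutant LECs (0.81 ± 0.14). *Fzd4* was higher (0.83 ± 0.16) and *Col3a1*, also a fibroblast product, lower (-3.20 ± 0.55) in mutant BECs. *Arhgef11* was lower in mutant LECs (-1.19 ± 0.25, adjusted p = 0.0496) and was the only member of its list called by genotype. In LECs 2 of 22 tested ligands and partners were called, both higher, and 1 of 20 G proteins and effectors, lower. Over all genes 1.96% were called higher and 0.805% lower. In BECs 3 of 21 ligands and partners were called, 2 higher and 1 lower, against 292 and 118 of 19313 genes. Under the alternatives *Arhgef11* was called in 3 of 19, *Flrt2* in 6 of 19 in LECs and 10 of 17 in BECs, *Col4a1* in 10 of 19, *Fzd4* in 4 of 17 and *Col3a1* in 9 of 17. In *Ptx3*-high LECs, *Tgm2* (-0.89 ± 0.15), the *Adgrg1* ligand, and *Wnt7a* (-5.75 ± 0.88) were lower. They were 2 of 16 tested ligands and partners, against 1.57% of all genes called lower. In *Lyve1*-low LECs *Tgm2* was higher (0.93 ± 0.08) and *Col4a1* and *Col4a2* lower (-1.02 ± 0.17 and -0.85 ± 0.14). Of 15 ligands and partners tested there, 1 was called higher and 2 lower, against 277 and 299 of 15128 genes.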

How the data were processed

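Smart-Seq2 reads of single sorted cells had been aligned with TopHat2 2.1.1 to GRCm38 with the chicken PIK3CA sequence added, freed of duplicates with SAMtools 0.1.18 and counted per gene with featureCounts (annotation version and strand setting not given in the sources used here). The authors deposited raw counts per gene and cell, with the summed exon length of each gene, from 384-well plates of 99969650–151812175 reads. Cells were kept at 200 or more genes, 50000 or more reads and a mitochondrial share of no more than 10% (3248 cells: 724 control and 2524 mutant). Genes were kept with a read in at least 3 cells, which left 28522 of 46517, and 46005 IDs were named by GENCODE vM21. No doublet caller was run, and 1048 of 1641 LECs and 153 of 1490 BECs reached 300 CPM on both gate sums. No cell name was shared between plates.

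Counts were summed per mouse and class, the plates of a mouse together, and tested with edgeR 4.0.16 (filterByExpr, TMM, quasi-likelihood, R 4.3.3), with Benjamini-Hochberg adjustment over all genes tested and calls at an adjusted p under 0.05. The mouse was a block for comparisons of classes within mice, which share an animal. The deviations of LECs and BECs of the same mouse from their group means correlated at r = 0.083 to 0.339. Genotypes were compared without a block. Genes used by a gate were left out of its test. DESeq2 1.42.0, other gates, thinning and leave-one-out fits were the alternatives. With 4-fold changes put into simulated data, 27.0–64.0% were recovered at the adjusted p threshold, and with 2-fold changes 0–32.0%. The changes were put only into genes above a minimum mean of reads, so recovery for members with few reads was not measured. CPM, RPKM, means and SDs were over mice, and Wilson 95% intervals cover counting error only. Over the whole list, values by mouse are given for members at a mean of at least 5 CPM or called. The members, gene lists and gates were chosen with earlier results of these data known. Control 3 was not analysed here. Python 3.11.15 with numpy 2.4.6, pandas 2.3.3, scipy 1.17.1 and matplotlib 3.10.9 was used.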

Additional observations from a re-analysis of the deposited data

Results flagged for a closer look

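Among 26 groups of 5 mutant mice, 3 held a mouse far from the other 4 (Dixon's criterion, which chance meets in about 1 of 20 groups). *Adgra3* in LECs of mutant 1 was at 26.2 CPM, against 1.78–8.42 in the other mutants. *Adgrf4* in BECs of mutant 4 was at 3.20 CPM, against 0.110–0.755. *Adgrl2* in LECs of mutant 5 was at 4.08 CPM, against 9.55–10.7.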

How the results depend on the processing

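No member changed its direction and passed the threshold in the opposite one under any alternative. Of 16 members tested between LECs and BECs, 9 were called, and this count stayed within 1.5 times of itself throughout. For *Ptx3*-high LECs (1 called), DESeq2 called 3, thinning to 50000 reads 2, mutant mice only 3, and the fit with no replicate block and the *Ptx3* gate of 300 CPM 0 each, and leaving out 1 mouse gave 0–3 (3 without control 1). For mutant against control LECs (3 called), the replicate block gave 0, the plate series as a term 1, LECs with *Ptx3* under 100 CPM 0, and leaving out 1 mouse 1–3 (1 without control 1). In BECs (1 called), DESeq2 gave 2, the replicate block 0, the plate series 0, and leaving out 1 mouse 1–2 (2 without control 1). For the interaction (0 called) DESeq2 gave 2. For *Lyve1*-low LECs (1 called), DESeq2 gave 3, its size factors in edgeR 2, no expression filter 2, thinning 2, mutant mice only 3, and leaving out 1 mouse 1–3. For arterial-gated BECs (2 called), DESeq2 gave 5, the stricter cell gate, leaving out cells with other markers, and mutant mice only 1 each, and leaving out 1 mouse 1–2. For venous-gated BECs (4 called) no replicate block gave 1, and leaving out 1 mouse 2–4 (2 without mutant 3). At 1 CPM 19 members counted as expressed, in place of 12, and at 10 CPM 10 did, without *Adgrb2* and *Adgrf4*. Leaving out 1 mouse at the level of 5 CPM gave 12–13.

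Mutant and control mice share only a number: their deviations correlated at r = -0.046 and 0.022 in LECs and 0.027 and 0.110 in BECs, and the replicate block, in which only numbers 1 and 2 hold both genotypes, called 3 genes of all in LECs in place of 546, and 0 in place of 410 in BECs. Over all genes, DESeq2 called 1732 in place of 430 (*Ptx3*), 2472 and 2238 (genotype in LECs and BECs), 1241 in place of 42 (interaction), 2006 in place of 576 (*Lyve1*), 1801 in place of 363 (arterial) and 2059 in place of 897 (venous). The plate series gave 178 and 54 in LECs and BECs, LECs without cycling cells 73, LECs with *Ptx3* under 100 CPM 10 and at or above it 843. With no block, 130, 317 and 470 genes were called for *Ptx3*, *Lyve1* and venous. Thinning gave 646 and mutant mice only 1098 for *Ptx3*, the stricter gate 116 for the interaction and 284 for *Lyve1*, leaving out cells with other markers 112 for the interaction, and the arterial gate of 1000 CPM 562. Leaving out 1 mouse gave as few as 166 and as many as 834 calls for *Ptx3*, as few as 153 and 159 for the genotype in LECs and BECs, 0 for the interaction, 344 for *Lyve1* and 551 for venous. The causes were not tested. In data simulated for mutant against control LECs, 2-fold changes were recovered for 8% of the changed genes and 4-fold changes for 57%. With 2 controls most genotype differences of about 2-fold would thus be missed.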

Other observations

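The 117 cells that met neither gate (50 control and 67 mutant cells, 75 of them with markers of other cells) held reads of several members. Summed over control and over mutant mice, with no replicate check, they had 71 and 43.9 CPM of *Adgrf4*, 45.9 and 22.2 CPM of *Adgrg6*, 16.7 and 4.86 CPM of *Adgrg2*, and 11.4 and 6.60 CPM of *Adgrl3*. *Adgrg3* was at 6.43 and 2.55 CPM there.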
